A study of Mus musculus with 6 samples.

Results

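The nuclear-encoded subunits of the oxidative phosphorylation complexes were described in livers with a conditional knockout of p14. p14 is the protein of Lamtor2, an adaptor on late endosomes and lysosomes that is a subunit of the Ragulator complex. The members were 47 genes listed by complex. Of these, 45 had a probe set that the platform annotation pairs with their symbol alone, out of 18193 genes with such a probe set, and each gene was read from the brightest of its probe sets. The 45 comprised 20 genes of complex I, 4 of complex II, 6 of complex III, the gene of cytochrome c, 7 of complex IV and 7 of complex V. Cox7b was not analysed here. Atp5f1, the b subunit of complex V, is annotated under its newer symbol Atp5pb and is given apart from the 45.

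Total RNA of whole liver was labelled with biotin and hybridised to Affymetrix mouse arrays, 1 for each animal. One group was 3 mice with a conditional p14 knockout in the liver (KO) and the other was 3 control mice labelled WT. All 6 were males on the C57BL/6 background, 6 weeks old, and the labels describe each as a biological replicate. The promoter that drives the recombinase, and whether the WT mice carried the conditional allele, are not stated in the sources used here. Values are log2 signals, so a difference of 1 is a doubling of signal, and a signal is compared only between arrays, never between genes.

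Oxidative phosphorylation takes place at the inner mitochondrial membrane. Complexes I and II pass electrons from NADH and succinate to ubiquinone, complex III passes them to cytochrome c, and complex IV passes them to oxygen. Complexes I, III and IV pump protons, and complex V, the ATP synthase, makes ATP as protons flow back. Hepatocytes are rich in mitochondria and use this ATP for gluconeogenesis, urea synthesis and other work. Most subunits are encoded in the nucleus, and a small set in mitochondrial DNA.

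The targeted gene was checked first. Lamtor2 had log2 signals of 10.08, 10.19 and 10.11 in KO livers, against 11.32, 11.29 and 11.35 in WT livers. All KO arrays lay below all WT arrays, and the KO mean was 43.8% of the WT mean (difference -1.19, limma adjusted p = 0.0104, and -0.72 with the mean of its probe sets, adjusted p = 0.0282). With an array left out the difference was -1.23 to -1.17, and the call was lost without KO 2, WT 1, WT 2 or WT 3 (limma adjusted p = 0.0505 to 0.114). A whole-liver sample also holds cells other than hepatocytes. Across all genes, 17 were called at a limma adjusted p under 0.05, 15 lower and 2 higher in KO, and this number ran from 1 without KO 2, WT 1 or WT 2 to 140 without KO 3.

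No oxidative phosphorylation subunit changed beyond the threshold, and the signals differed little between the groups. All 45 members exceeded a log2 signal of 4 on all 6 arrays and were bright, with means from 11.29 to 15.20. Limma called 0 of the 45, where 0.17% of all 10009 genes tested were called (0.15% lower and 0.02% higher in KO). The smallest adjusted p of a member was 0.242, for Ndufa5. At an unadjusted p under 0.05 there were 5 members lower in KO (Ndufa5, Ndufa8, Ndufb7, Ndufb10 and Uqcrh) and 0 higher, beside 10.1% and 4.32% of all genes and 7.4% and 5.11% of the 1487 genes at least as bright as the dimmest member. An ordinary 2-sample test on the same values also called 0 members.

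The small differences mostly had the same sign. The KO mean was below the WT mean for 39 of the 45 members and above it for 6. The shares were 58.4% and 41.6% of all genes tested, and 57.2% and 42.8% of the genes at least as bright. The median difference of the members was -0.08, which is 94.6% of the WT signal, beside -0.04 for all genes and -0.02 for the genes at least as bright. Scaling moved these values in 1 of 2 alternatives: after each array was centred on its own median, 29 members were lower and 16 higher in KO, and the members' median was -0.01 beside 0.03 for all genes. After quantile normalisation 40 were lower and 5 higher, with a median of -0.09 beside -0.01 for all genes. The deposited arrays had medians 0.07 lower in KO than in WT over the genes tested.

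In 18 of the 45 members the 3 KO arrays all lay below the 3 WT arrays, and in 0 they all lay above. Over all genes these shares were 14% and 6.54%, and over the genes at least as bright they were 15.3% and 9.28%. After median centring 4 members had groups apart, and the share over all genes was then 8.22% in both directions together. After quantile normalisation 16 members had groups apart, all with KO lower, beside 11.3% of all genes. Differences of the members ran from -0.26 to 0.12, with 5 at -0.2 or lower and 17 at -0.1 or lower, beside 37.4% of all genes and 29.1% of the genes at least as bright at -0.1 or lower. The 95% confidence intervals were taken for each member alone, on the deposited scaling, and do not cover a shift shared by most genes. The lowest bound of any member was -0.47, or 72.3% of WT, for Ndufb10, and the highest was 0.37, or 129% of WT, for Ndufa4. The median standard error of a difference was 0.07, and no member had a within-group SD above 0.17.

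**Figure D1:**
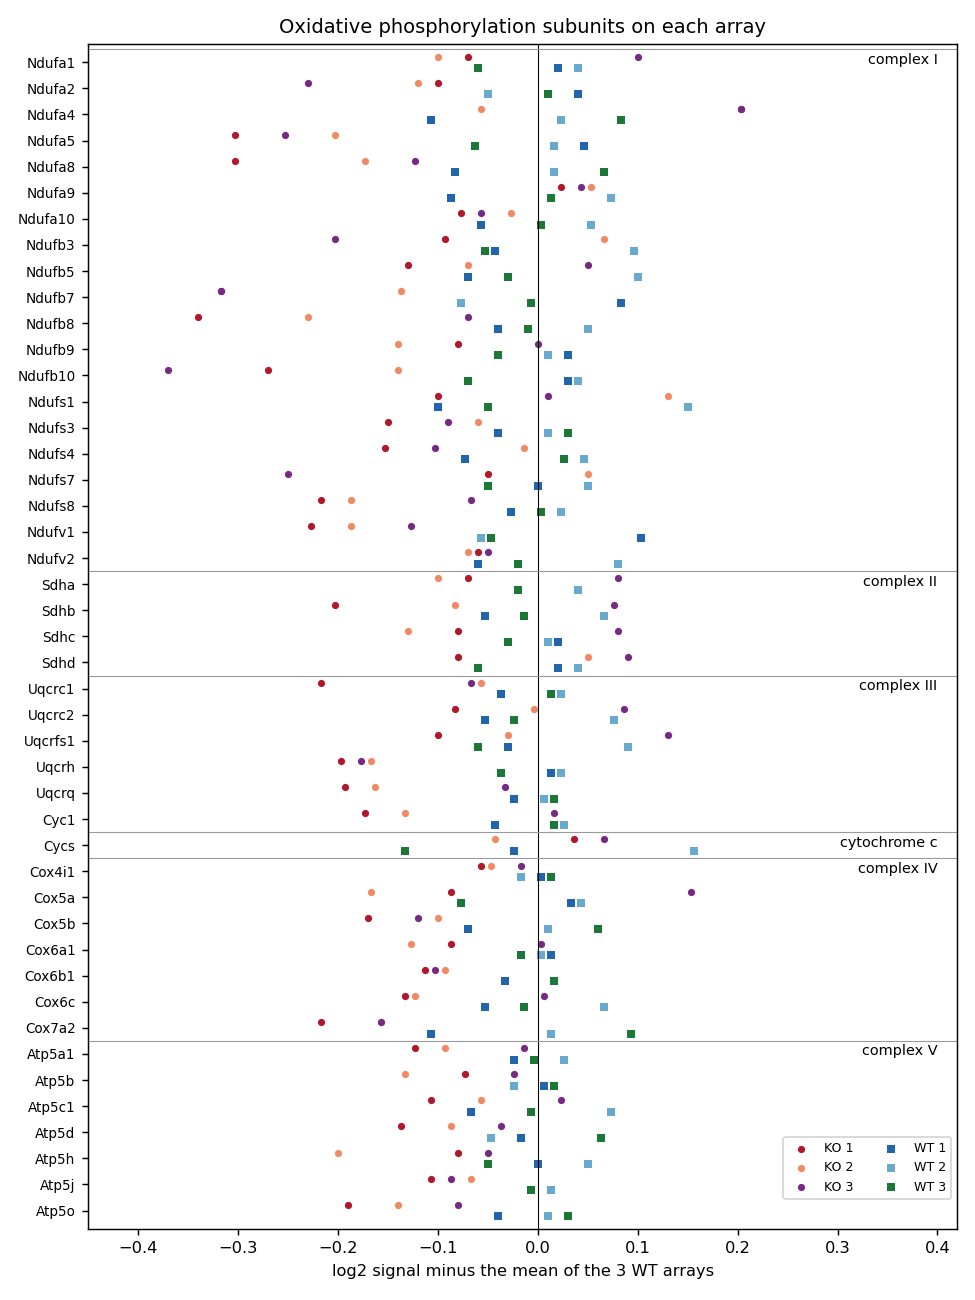
Log2 signal of each of the 45 members on each array, minus the mean of the 3 WT arrays (horizontal axis, log2 units), with members down the page by complex. Circles are KO arrays and squares WT arrays, and equal values lie over each other. In 18 members every circle lies left of every square (4 after median centring and 16 after quantile normalisation), and in 0 every circle lies right.

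The KO arrays did not stand equally far from WT. Taken over the 45 members, the median deviation from the WT mean was -0.11 on KO 1, -0.10 on KO 2 and -0.03 on KO 3, against -0.03, 0.03 and -0.01 on WT 1 to WT 3. KO 1 was below all WT arrays in 40 members, KO 2 in 33 and KO 3 in 21. KO 3 was above all WT arrays in 9 members. These counts were not taken over all genes, so they cannot be read as particular to the members. Below the WT mean lay 42, 40 and 28 members on KO 1, KO 2 and KO 3. Over the 10009 genes tested, 5623, 5627 and 5831 did. Without KO 3, the groups stood apart with KO lower in 32 members and the median of the members was -0.11, and the same share over all genes was then 23.5% in both directions together. Without KO 1, 2 members were at an unadjusted p under 0.05, in place of 5.

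**Figure D2:**
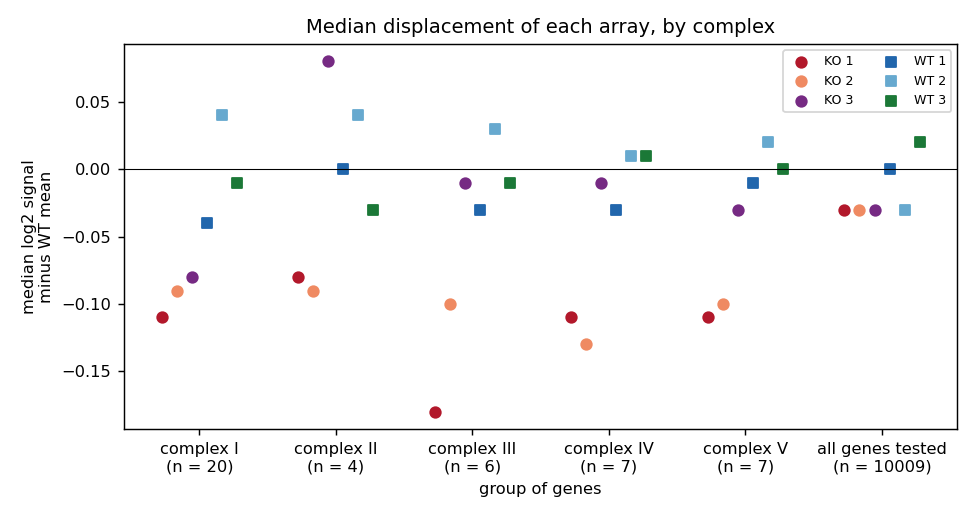
Median over the members of each complex of the log2 signal minus the WT mean (vertical axis, log2 units), for each array, beside the same over all 10009 genes tested. Circles are KO arrays and squares WT arrays. KO 3 lies at 0.08 for complex II, above the other KO arrays, and all KO arrays lie at -0.03 for all genes.

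Some promoters of the members hold letters that the choice of members did not use. Factors known to drive respiratory genes include NRF1, the ETS factor GABPA, the nuclear receptor ESRRA and YY1. RefSeq promoters of build GRCm38.p6, which run 250 bases before to 50 bases after the gene start, were found for 35 of the 45 members and for 27025 genes in all. Each was searched on both strands for GCGCATGC (NRF1), CCGGAAG (ETS factors), TCAAGGTCA (ESRRA) and AAGATGGCG (YY1). The last 3 letters of the ETS motif can be the first 3 of the YY1 motif. Of the 35 member promoters, 16 (45.7%) held at least 1 of them, beside 14% of all genes. The 27025 genes were not limited to those tested or as bright. An excess common to expressed genes can therefore not be told from one particular to the members.

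The NRF1 letters were in 5 member promoters (14.3%, beside 3.05% of all genes) and the ETS letters in 10 (28.6%, beside 9.93%). The YY1 letters were in 4 (11.4%, beside 1.64%) and the ESRRA letters in 1, that of Sdhd (2.86%, beside 0.466%). Among the 16 matched members whose groups stood apart, 2 held the NRF1 letters, 6 the ETS letters and 1 the YY1 letters. Among the 19 whose groups overlapped, the numbers were 3, 4 and 3. A match is a description of the sequence and says nothing of binding in these livers. The 120 bases before the start of 4 members are printed 5′ to 3′ on the gene's strand, with a motif in capitals: Ndufb10 and Uqcrh as members with groups apart, without and with a match, and Sdhb and Cycs as members whose groups overlapped. Ndufb10 lies at chr17:24724424-24724543 on the minus strand, Uqcrh at chr4:116075071-116075190 on the minus strand, Sdhb at chr4:140961151-140961270 on the plus strand, and Cycs at chr6:50566570-50566689 on the minus strand.
Ndufb10: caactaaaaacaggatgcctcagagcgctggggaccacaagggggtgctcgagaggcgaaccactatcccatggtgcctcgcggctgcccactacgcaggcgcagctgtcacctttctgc
Uqcrh: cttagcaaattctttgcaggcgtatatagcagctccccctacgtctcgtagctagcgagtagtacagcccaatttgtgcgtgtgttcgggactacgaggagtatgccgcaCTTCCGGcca
Sdhb: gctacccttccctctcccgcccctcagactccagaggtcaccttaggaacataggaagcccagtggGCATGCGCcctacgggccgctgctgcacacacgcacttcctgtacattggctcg
Cycs: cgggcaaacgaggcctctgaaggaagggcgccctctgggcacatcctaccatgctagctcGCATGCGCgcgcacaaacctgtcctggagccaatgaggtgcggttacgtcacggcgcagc
The capitals in Sdhb and Cycs are the NRF1 letters read on the other strand, and those in Uqcrh are the ETS letters read on the other strand. Sdhb also holds the ETS letters, beyond the bases printed. Each printed member had the lowest difference of its complex among members with a promoter. The same rule drew Cox7a2 and Atp5o from complexes IV and V, which are not printed. Both had groups apart, and their promoters held none of the motifs searched.

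Complex I, NADH:ubiquinone oxidoreductase, was the complex with the largest number of members. Of its 20 genes, 17 were lower and 3 higher in KO, with a median of -0.09 that became -0.02 after median centring and -0.13 when each gene was read from its most variable probe set. Groups stood apart, with KO lower, in 9 of the 20, beside 14% of all genes. By position in the enzyme, the N module, where NADH is oxidised, had 4 of 5 genes lower with a median of -0.09, or 3 and -0.03 after median centring. The Q module, where ubiquinone is reduced, had 4 of 5 lower with a median of -0.11, or 4 and -0.04 after centring. The membrane arm, which pumps protons, had 9 of 9 lower with a median of -0.07, or 6 and -0.01 after centring.

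In the N module, Ndufv1, which carries the flavin that accepts electrons from NADH, had log2 signals of 12.99, 13.03 and 13.09 in KO livers, against 13.32, 13.16 and 13.17 in WT livers. The groups did not overlap, and KO was lower by a difference of -0.18 (limma adjusted p = 0.345). Ndufa2, a small accessory subunit of the same module, had 12.97, 12.95 and 12.84 in KO livers and 13.11, 13.02 and 13.08 in WT livers. Its groups were also apart, with a difference of -0.15 (limma adjusted p = 0.373). Ndufs1, Ndufs4 and Ndufv2, the other members of the module, had overlapping groups.

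In the Q module, Ndufa5 had 12.48, 12.58 and 12.53 in KO livers, against 12.83, 12.80 and 12.72 in WT livers. Ndufa5 is an accessory subunit at the base of the matrix arm. Its KO signal was 83.9% of WT (difference -0.25, 95% interval -0.41 to -0.09, limma adjusted p = 0.242), and every KO array was below every WT array. Ndufs8, a core subunit that binds iron-sulphur clusters, had 13.69, 13.72 and 13.84 in KO livers and 13.88, 13.93 and 13.91 in WT livers. KO 3 was the KO array nearest WT, and the groups did not overlap (difference -0.16). Ndufs3, another core subunit, was lower in KO by a difference of -0.11 with groups apart.

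The membrane arm held the lowest differences among the members. Ndufb10, an accessory subunit on the intermembrane-space side, had 12.12, 12.25 and 12.02 in KO livers, against 12.42, 12.43 and 12.32 in WT livers. The lowest signal was that of KO 3, and the difference was -0.26 (95% interval -0.47 to -0.06, limma adjusted p = 0.288). Ndufb7, which lies on the same side of the membrane, had 12.91, 13.09 and 12.91 in KO livers and 13.31, 13.15 and 13.22 in WT livers. KO 2 came close to WT 2 without reaching it, and the difference was -0.26 (limma adjusted p = 0.295).

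Ndufb8, a single-span subunit widely used as a marker of assembled complex I, had 12.85, 12.96 and 13.12 in KO livers, against 13.15, 13.24 and 13.18 in WT livers. KO 1 was lowest and KO 3 lay just under WT 1 (difference -0.21, limma adjusted p = 0.345, and -0.08 with the mean of its probe sets). The other probe set of Ndufb8 was dim, with means of 6.20 in KO livers and 6.15 in WT livers. Ndufa8 had 12.59, 12.72 and 12.77 in KO livers and 12.81, 12.91 and 12.96 in WT livers, with a difference of -0.20 (limma adjusted p = 0.340). In these 4 genes of the membrane arm the groups stood apart, and in the other 5 they overlapped.

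Ndufa4, first described as a complex I subunit and now placed in complex IV, had the highest difference of all members. Its signals were 13.77, 13.51 and 13.77 in KO livers, against 13.46, 13.59 and 13.65 in WT livers. KO 1 and KO 3 were above all WT arrays and KO 2 lay among them, with a difference of 0.12 (95% interval -0.13 to 0.37, limma adjusted p = 0.597).

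Complex II, succinate dehydrogenase, also works in the citric acid cycle and has no subunit encoded in mitochondrial DNA. Its 4 genes had a median of -0.04, which changed sign to 0.03 after median centring, and groups overlapped in all 4. Sdhb, the iron-sulphur subunit, had 13.91, 14.03 and 14.19 in KO livers, against 14.06, 14.18 and 14.10 in WT livers. KO 1 was the lowest and KO 3 the highest of the 6 arrays, so the KO arrays spanned the WT arrays. The membrane anchors Sdhc and Sdhd differed by -0.05 and 0.02, and each changed sign with the choice of probe set. For Sdhc it did so after median centring too, to 0.02. For Sdhd quantile normalisation gave -0.00.

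In complex III, the cytochrome bc1 complex, the KO mean was lower for 5 of 6 genes, and the median difference was -0.11, or -0.04 after median centring. The 5 include Uqcrfs1, whose difference was -0.000, so by size it did not differ. Uqcrh, the hinge protein that helps bind cytochrome c1 to cytochrome c, had 13.38, 13.41 and 13.40 in KO livers, against 13.59, 13.60 and 13.54 in WT livers. Both groups were tight and apart, with KO at 88.2% of WT (difference -0.18, limma adjusted p = 0.285). A further bright probe set of Uqcrh differed by only -0.03 with groups overlapping, and the mean of both gave -0.11. Uqcrq, a small subunit, and Uqcrc1, a core subunit, also had groups apart, at -0.13 and -0.12. With the mean of its probe sets Uqcrq was at -0.03, but its other probe sets lay at 2.18 on every array and measured no difference. Uqcrc2, the partner of Uqcrc1 in the core, had a difference of 0.00 and overlapping groups, and was -0.01 with array weights.

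Cytochrome c, the mobile carrier between complexes III and IV, showed no separation. Cycs had 14.04, 13.96 and 14.07 in KO livers, against 13.98, 14.16 and 13.87 in WT livers. The WT arrays spanned the KO arrays (difference 0.02, limma adjusted p = 0.936, and -0.01 with the mean of its probe sets). Both of its other bright probe sets had the opposite sign, at -0.14 and -0.08.

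In complex IV, cytochrome c oxidase, the KO mean was lower for 7 of 7 genes, and the median difference was -0.09, which became -0.02 after median centring, where Cox5a changed sign to 0.04. Cox7a2, the isoform found in liver and most other tissues, had 14.50, 14.56 and 14.56 in KO livers, against 14.61, 14.73 and 14.81 in WT livers. The groups were apart, and the difference was -0.18 (limma adjusted p = 0.345). Cox5b and Cox6b1, structural subunits on opposite faces of the enzyme, had groups apart at -0.13 and -0.10. Cox5b was at -0.08 with the mean of its probe sets. That mean takes in a probe set at 2.19 on every array and a dim probe set that differed by 0.01. The other bright probe sets of Cox5b differed by -0.14, -0.11 and -0.13. Cox5a overlapped at -0.03, as did Cox6c at -0.09 (0.05 with its most variable probe set), and KO 3 had the highest Cox5a signal of the 6 arrays, 14.59. With Ndufa4 counted in complex IV, the medians were -0.09 for complex I and -0.08 for complex IV.

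In complex V, the ATP synthase, the KO mean was lower for 7 of 7 genes, and the median difference was -0.08, which became -0.02 after median centring, where Atp5c1 changed sign to 0.02. Atp5o, which joins the catalytic head to the peripheral stalk, had 12.67, 12.72 and 12.78 in KO livers, against 12.82, 12.87 and 12.89 in WT livers. The groups were apart with KO 3 nearest WT (difference -0.13, limma adjusted p = 0.373). Atp5j, a subunit of the peripheral stalk, had 13.66, 13.70 and 13.68 in KO livers and 13.76, 13.78 and 13.76 in WT livers. Both groups were narrow and did not overlap (difference -0.09, limma adjusted p = 0.490).

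In the catalytic head, Atp5b, the catalytic beta subunit, was lower in KO by a difference of -0.08 with groups apart. Atp5a1, the alpha subunit, also differed by -0.08 and overlapped, and Atp5c1, the central gamma subunit, differed by -0.05. Atp5pb, the gene listed as Atp5f1, had 14.43, 14.34 and 14.55 in KO livers, against 14.54, 14.58 and 14.45 in WT livers. KO 3 lay between WT 1 and WT 2, and the difference was -0.08 (limma adjusted p = 0.628).

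**Figure D3:**
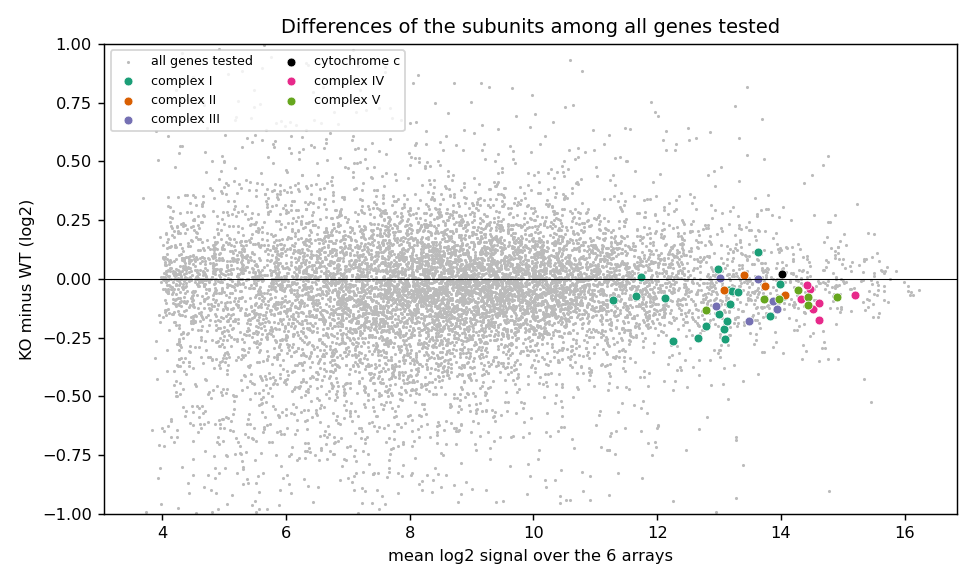
KO minus WT difference (vertical axis, log2) against the mean log2 signal over the 6 arrays (horizontal axis), for all genes tested in grey and the 45 members coloured by complex. Members lie between 11.29 and 15.20 on the horizontal axis and between -0.26 and 0.12 on the vertical axis. The plot leaves out 233 genes with a difference beyond 1 in either direction.

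Several members were measured by more than 1 probe set. The 45 members had 95 probe sets, and 41 of the 50 further ones were past the filter on low values. Of these 41, 34 were lower in KO and 32 had the sign of the probe set used. The 9 of opposite sign belonged to 8 members: Atp5a1, Atp5c1, Cox5b, Cox6c, Cycs, Ndufb8, Sdhc and Sdhd. The opposite value for Atp5c1, 0.35, came from a probe set with signals between 5.20 and 6.34, near the low end of the range of values.

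Subunits outside the 47 were read in the same way. Of 28 other nuclear-encoded genes past the filter, the KO mean was lower for 25 and higher for 3. The median difference was -0.14, which was -0.08 after median centring and -0.14 after quantile normalisation. The 28 take in Atpif1, an inhibitor of complex V and not a subunit, at -0.46. They also take in Cox7a2l, a relative of Cox7a2 that acts in assembly, at 0.06. Limma called 0 of the 28, and 7, Atpif1 among them, were lower at an unadjusted p under 0.05, beside 10.1% of all genes. Groups stood apart with KO lower in 19 of the 28, beside 14% of all genes. The number was 5 after median centring and 19 after quantile normalisation. Ndufc1, a small membrane-arm subunit of complex I, had 12.79, 12.76 and 12.78 in KO livers, against 13.06, 13.08 and 13.10 in WT livers. Both groups were tight and wide apart relative to their spread, with KO at 81.1% of WT (difference -0.30, limma adjusted p = 0.165). Atp5g1, a gene for the c-ring subunit of complex V, differed by -0.19 with groups apart. Atp5g2 and Atp5g3, which encode the same subunit and were added here after their values were seen, differed by 0.03 and -0.02 with groups overlapping. The subunit encoded in mitochondrial DNA that was measured, mt-Nd5 of complex I, had 15.30, 15.30 and 15.27 in KO livers, against 15.15, 15.32 and 15.22 in WT livers, and its groups overlapped.

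Other mitochondrial genes did not all lean the same way. Of 18 citric acid cycle and pyruvate dehydrogenase genes past the filter, the KO mean was lower for 14, and the median difference was -0.15, or -0.08 after median centring. Mdh2, mitochondrial malate dehydrogenase, had 13.49, 13.53 and 13.68 in KO livers, against 13.89, 13.95 and 13.80 in WT livers, with groups apart (difference -0.31, limma adjusted p = 0.242). Idh2, mitochondrial NADP-dependent isocitrate dehydrogenase, was lower by a difference of -0.47 with groups apart (limma adjusted p = 0.270). Of 41 assembly factors, which help build the complexes without being part of them, the KO mean was higher for 26 and lower for 15, and the median difference was 0.05, or 0.11 after median centring. Ndufaf5, an assembly factor of complex I, was lower by a difference of -0.56 (limma adjusted p = 0.250), and Uqcc2, an assembly factor of complex III, by -0.30. Groups stood apart with KO lower in 5 of the 41 and with KO higher in 6, beside 14% and 6.54% of all genes. Cox15, which works in heme a synthesis for complex IV, was higher in KO by 0.41 with groups apart, and Timmdc1, an assembly factor of complex I, had the highest difference, 0.75, with groups overlapping. Cox15 and Timmdc1 were picked with their values known.

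Of 26 mitochondrial ribosomal proteins, the KO mean was higher for 17 and lower for 9, and the median difference was 0.02, or 0.09 after median centring. Mrpl1 and Mrps18a had groups apart with KO higher, at 0.20 and 0.16. Of 19 carriers and import components, 12 were lower and 7 higher, with a median of -0.01, which changed sign to 0.05 after median centring. Timm50, a receptor of the inner-membrane import machinery, had groups apart at -0.40, and Slc25a3, the phosphate carrier that supplies complex V, overlapped at -0.10. Of 16 regulators of mitochondrial biogenesis, 10 were higher and 6 lower, with a median of 0.07, or 0.14 after median centring. Nrf1, whose product binds the NRF1 letters above, had 5.79, 5.56 and 5.43 in KO livers, against 6.26, 5.86 and 6.41 in WT livers. Its groups were apart at a low signal (difference -0.58, limma adjusted p = 0.270). Pprc1, a coactivator related to PGC-1alpha, varied widely within KO, from 6.10 to 7.76, and overlapped WT. In these lists 0 genes were called by limma, and at an unadjusted p under 0.05 there were 3 lower in the citric acid cycle list, 2 lower and 1 higher among assembly factors, 1 higher among ribosomal proteins, 1 lower among carriers and 1 lower among regulators. The shares of all genes at that threshold were 10.1% lower and 4.32% higher. The differences between these lists were not tested.

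**Figure D4:**
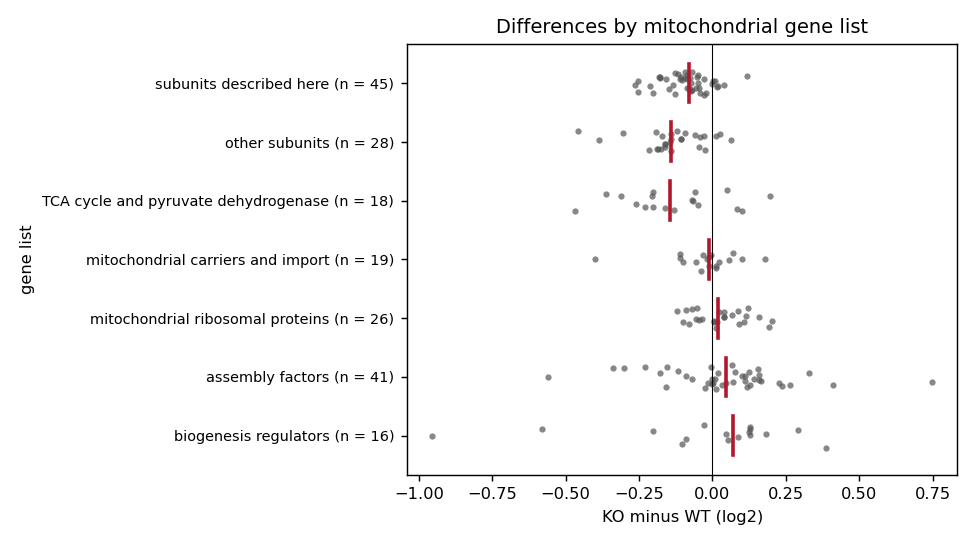
KO minus WT difference (horizontal axis, log2) of each gene past the filter in the members and in 6 other mitochondrial lists (vertical axis, number of genes in brackets). Each point is a gene and each vertical bar the median of its list, which runs from -0.15 for citric acid cycle genes to 0.07 for biogenesis regulators (-0.08 and 0.14 after median centring, where the carriers turn to 0.05). One carrier gene, Slc25a4, lies outside the plotted range.

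The tissue-specific isoforms of complex IV marked WT 2 as unlike the other arrays. Cox6a2, the heart and muscle isoform of Cox6a1, was at 2.18 on all 3 KO arrays, WT 1 and WT 3, against 9.26 on WT 2. Cox8b, the muscle isoform of Cox8a, was at 9.31 on WT 2 and no higher than 2.19 on the other 5 arrays. Cox7a1, the muscle isoform of Cox7a2, had 4.48, 5.31 and 5.29 in KO livers, against 6.02, 9.40 and 6.20 in WT livers, and its groups stayed apart (limma adjusted p = 0.358). Cox4i2 was at 2.18 on every array, and Cox6b2 stayed low, with at most 3.10 in KO livers and 4.58 in WT livers.

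Skeletal muscle markers followed the same array. All 15 were highest on WT 2, and 13 were below a log2 signal of 4 on the other 5 arrays. Their mean was between 2.78 and 2.86 in KO livers, against 10.83 on WT 2 and between 2.88 and 2.94 on the other WT arrays. Slc25a4, the heart and muscle ADP/ATP carrier, was at 12.50 on WT 2 and no higher than 8.38 elsewhere. For the 45 members, WT 2 deviated from the WT mean by a median of 0.03 and lay below it in only 6. Without WT 2 the median of the members was -0.07.

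**Figure D5:**
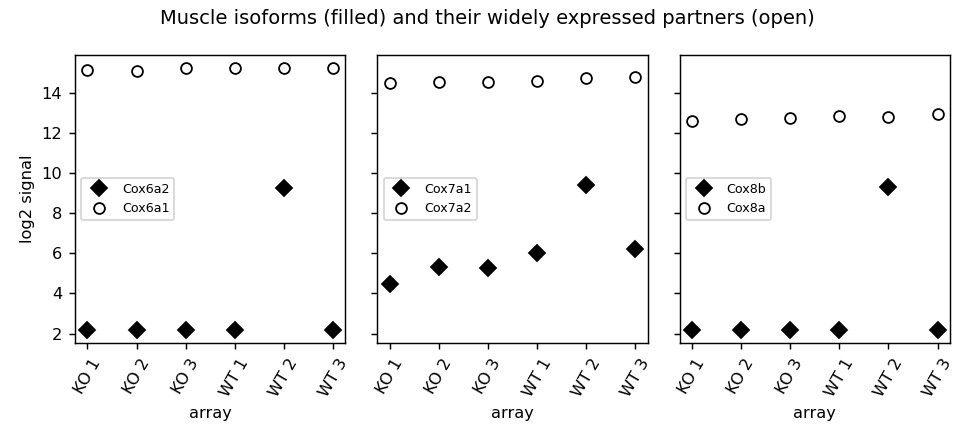
Log2 signal (vertical axis) of 3 muscle isoforms of complex IV (filled diamonds) and of their widely expressed partners (open circles) on each array (horizontal axis). Cox6a2, Cox7a1 and Cox8b reach 9.26, 9.40 and 9.31 on WT 2 and are lower on the other arrays, while the partners vary little.

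Some other cell-type markers and quality measures also moved with the groups. The 10 hepatocyte markers had means of 15.64 to 15.71 in KO livers, against 15.60 to 15.71 in WT livers. Of 12 macrophage markers, 12 were lower in KO, with means of 8.61 to 9.87 in KO livers, against 10.16 to 10.30 in WT livers. Of 11 endothelial markers, 10 had a lower KO mean and 2 fell beyond the limma threshold, with means of 8.18 to 8.54 in KO livers, against 8.79 to 8.97 in WT livers. Of 11 stellate cell markers, 10 had a lower KO mean, but 7 of the 11 were highest on WT 2. These 10 included Des, at 7.53 on WT 2 and 3.46 on every other array. The means overlapped, at 8.45 to 8.85 in KO livers, against 9.66 on WT 2 and 8.76 to 8.92 on the other WT arrays. Of 9 proliferation markers, 9 had a lower KO mean, with means of 3.14 to 4.07 in KO livers, against 5.75 to 5.96 in WT livers. Beyond the limma threshold fell 4, Top2a, Aurka, Kif20a and Nuf2. The last 3 of these reached a log2 signal of 4 on WT arrays only. They passed the filter through WT alone, so their calls are no separate support. Lymphocyte marker means overlapped, at 3.09 to 3.17 in KO livers and 3.10 to 3.37 in WT livers. So did neutrophil means, at 3.10 to 3.55 and 3.18 to 3.25, and erythroid means, at 5.04 to 5.36 and 5.00 to 5.19. Cholangiocyte means were 3.45 to 3.73 in KO livers, against 3.86 to 4.01 in WT livers. The large difference in that list was that of Prom1 alone, at -2.52. Epcam, the other marker past the filter, differed by 0.08, so the means do not describe the list as a whole. Most markers of these last lists were below a log2 signal of 4 on all arrays. In a whole-liver sample, fewer cells of a type and less RNA per cell cannot be told apart.

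Some quality probes differed as well. The 18S ribosomal RNA controls were at 9.24, 9.11 and 8.50 in KO livers, against 8.24, 8.44 and 7.77 in WT livers. The 3′ minus 5′ signal of pyruvate carboxylase, a measure of how far labelling reached along the RNA, was 3.58, 3.51 and 3.54 in KO livers, against 4.65, 3.99 and 4.85 in WT livers. In both measures the groups did not overlap. The same 3′ minus 5′ signal overlapped for beta-actin, at 0.97 to 1.15 in KO livers, against 1.00 to 1.36 in WT livers. It also overlapped for Gapdh, at 0.03 to 0.12 in KO livers, against 0.08 to 0.18 in WT livers. The part of these markers and quality measures in the differences of the subunits was not tested.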

How the data were processed

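Total RNA from 3 KO and 3 WT livers was hybridised to 1 array each. The deposited table gives a log2 level for every probe set. The submitters' processing notes name GCRMA 2.16.0 and R 2.9.1; the log2 scale was inferred from the range of the values, 2.185 to 16.327. GCRMA subtracts a sequence-based background and normalises between arrays, which assumes like signal distributions, so a shift shared by most genes cannot be measured. The precision is limited by the number of arrays. Annotation covered 45101 probe sets: 34945 with 1 gene symbol in the platform annotation, 932 with several, 9160 with none listed and 64 controls.

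Each of 18193 genes was read from its probe set with the highest mean, and the 10009 that reached a log2 of 4 on 3 or more arrays were fitted with limma 3.58.1 (R 4.3.3, functions lmFit and eBayes, 2-sided, KO minus WT, no covariates), with Benjamini-Hochberg adjustment over all genes and a threshold of 0.05. The steps were tested on simulated data. Settings were varied by normalisation, filter, probe set, variance model, test, pairing and arrays left out.

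Named members were those with groups apart, the highest, lowest and smallest p of each complex, cytochrome c, and those with probe sets of opposite sign; each other list gave its 2 smallest p, and all tissue isoforms were named. Slc25a4, Atp5g2, Atp5g3, Cox15, Timmdc1, Uqcrfs1, Atpif1, Cox7a2l, single cell-type markers and the remaining complex I genes were named after their values were seen. The members and lists were chosen with earlier results of these data known. Scan dates were not analysed here.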

Additional observations from a re-analysis of the deposited data

How the results depend on the processing

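In no setting tried was a member called by limma, and of 475 values of the 28 members named by the rule under 17 alternatives, 454 kept their sign and 21 did not. Changes of the filter, values below 4 set to 4, the mean trend with robust prior and the replicate block cannot alter a member's difference. The signs under those settings were kept by construction, so the 454 overstates how stable the signs are. Calls over all genes, 17 here, numbered 3 without the filter, 3 with the ordinary test, 3 when both KO 3 and WT 2 were omitted, 0 with a replicate block and 1 to 140 with an array left out (1 without KO 2, WT 1 or WT 2, 5 without WT 3, 6 without KO 1, 140 without KO 3). Members at an unadjusted p under 0.05, 5 here, numbered 13 with a mean trend and robust prior (10.8% of all genes), 15 without the filter (5.06%), 14 with the ordinary test (7.40%), 8 with array weights (11.4%), 3 with the replicate block (9.08%), 1 with KO 3 and WT 2 left out (11.4%), 0 after median centring (6.56%), and 2 to 6 with an array left out (2 without KO 1). Members with groups apart, 18 here, numbered 4 after median centring (8.22% of all genes) and 16 after quantile normalisation (11.3%). They numbered 33 with KO 3 and WT 2 left out, beside 32.3% of all genes, and 19 to 32 with an array left out. With fewer arrays in a group, groups stand apart more often over all genes too. These higher numbers are therefore not comparable with 18. Median centring also gave medians of -0.01 for all members, -0.02 for complex I, -0.04 for III, -0.02 for IV and -0.02 for V. Complex I had -0.13 with the most variable probe set and -0.14 to -0.07 with an array left out.

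Lamtor2 differed by a like amount but missed the limma threshold with the replicate block (-1.19, adjusted p = 0.116) and with KO 3 and WT 2 left out (-1.20, adjusted p = 0.114). It also missed the threshold without KO 2 (limma adjusted p = 0.0691), WT 1 (0.114), WT 2 (0.114) or WT 3 (0.0505). With an array left out the difference ran from -1.23 to -1.17. With the mean of its probe sets it was -0.72 (limma adjusted p = 0.0282). The reason for the lost calls was not tested. Same-numbered KO and WT arrays had correlations of deviations of -0.086, -0.079 and -0.141. Arrays of different number had -0.074 to 0.157. With 3 arrays in each group these values cannot show whether the numbers pair the mice.

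Some members changed sign. Sdhc was 0.02 with the mean of its probe sets, 0.02 after median centring and 0.09 with the most variable probe set, where Sdhd was -0.01, Cox6c 0.05 and Atp5c1 0.35. Atp5c1 was 0.15 with the mean of probe sets and 0.02 after centring, Cycs -0.01 with the mean, Cox5a 0.04 after centring, Sdhd -0.00 with quantile normalisation, and Uqcrc2 -0.01 under array weights and -0.00 when KO 3 and WT 2 were omitted. With an array left out, Cox5a ranged from -0.12 to 0.04, Sdhd from -0.02 to 0.06, Uqcrc2 from -0.04 to 0.04 and Cycs from -0.05 to 0.10. The cause was not tested. Adding Atp5pb, chosen after seeing the data, changed no call.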
